A study of Mus musculus with 23 samples.

Results

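The genes described here encode the transcription factor NRF2 and the proteins that work directly with it or against it. They are *Nfe2l2* (NRF2 itself), its relatives *Nfe2l1* and *Nfe2l3*, the repressor *Keap1*, the autophagy receptor *Sqstm1* (p62), the small MAF genes *Mafg*, *Mafk* and *Maff*, and the repressors *Bach1* and *Bach2*. Their rows were found by matching each Ensembl identifier of the count tables to these symbols in an annotation of GRCm39, which gave 10 genes of 56941. All 10 were among the 14488 genes that passed the filter on low counts. The pathway was selected on differences between CRE and RFP libraries that had been computed earlier from the same counts. Every CRE against RFP value below is therefore a description, given with its error but with no test, and the number of members past a threshold is not support for anything.

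NRF2 is the main transcription factor of the response to oxidants and electrophiles. In unstressed cells KEAP1 binds it and presents it to a ubiquitin ligase built on the cullin CUL3, which must carry the ubiquitin-like protein NEDD8 to be active, so that NRF2 is made and degraded continuously. When KEAP1 is modified, or is held by p62, NRF2 accumulates, pairs with a small MAF protein and binds antioxidant response elements near genes for glutathione synthesis, quinone reduction, NADPH supply and iron storage. BACH1 and BACH2 use the same small MAF partners and the same elements to repress transcription. NRF1, the product of *Nfe2l1*, is a relative anchored in the endoplasmic reticulum that is cleaved and raises proteasome genes when proteasomes are inhibited. Regulation of NRF2 is largely at the protein level, which RNA counts do not measure.

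Primary hippocampal neurons came from newborn mice homozygous for the Nedd8cKO allele, and their RNA was sequenced. This allele has loxP sites around 2 exons of *Nedd8*, which CRE removes. The study's methods describe editing in FVB/N eggs, whereas the reporting summary lists the homozygous animals as being of a C57BL substrain. The strain of the mice that carried the allele is therefore not certain. Both groups carried this allele and received a lentivirus whose Synapsin1 promoter is active in neurons, encoding RFP alone (RFP libraries) or CRE with RFP (CRE libraries), so that other cells in the dish were not meant to recombine. The labels give 12 days in culture for all libraries, and the study's methods give a day later. There were 12 CRE and 11 RFP libraries, and the number in each label before the replicate number, 1 to 3, was read as the number of the culture. Libraries of the same culture may be technical repeats, so every p-value below measures only the spread between libraries.

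The comparison used the 21 libraries of the study's own count table, 11 CRE and 10 RFP, whose counts assigned to genes totalled 7430401 to 17112815. The study's methods instead name Cre1-3 and Cre3-3 as removed. *Nedd8* was at 5.92 to 18.0 CPM (reads of a gene relative to the library total) in the CRE and 44.1 to 76.0 CPM in the RFP libraries, with no overlap. Each result was repeated without 4 libraries that stand apart. Cre1-3 and RFP2-4 had low shares of mitochondrial counts, 0.261% and 3.44%, and levels that followed the GC content of genes (Spearman correlation across genes 0.74 and 0.504 against the mean of the others). Cre3-3, with 1546796 counts, and RFP3-2, with 7635735 counts, are not in the study's table. Levels in Cre3-3 also followed GC content, with a correlation of 0.563. Markers are counted here as higher or lower in CRE libraries only where called by the rule of the next paragraph. By that rule 16.4% of all genes tested were higher and 13.8% lower. Summed CPM of 10 pan-neuronal markers was 3543 to 6625 (median 5354) in CRE and 6664 to 7991 (median 7645) in RFP libraries. Of these markers 6 were called lower in CRE libraries and 1 higher. Of 9 astrocyte markers 4 were called lower and 2 higher, with sums of 1640 to 5276 and 3693 to 7939 CPM. Of 8 oligodendrocyte lineage markers tested 5 were called lower, with sums of 425 to 1910 and 647 to 1873 CPM. Of 6 glutamatergic markers 1 was called higher and 4 lower, with sums of 709 to 1488 and 1987 to 3950 CPM. Of 8 GABA neuron markers 3 were called higher and 1 lower, with sums of 882 to 1839 and 1097 to 2327 CPM. Microglial markers summed to 5.72 to 12.5 and 2.77 to 11.7 CPM, with 1 of 3 tested called higher. Endothelial and mesenchymal markers summed to 16.5 to 387 and 17.6 to 145 CPM, with 1 called higher and 1 lower of 7 tested. *Cx3cr1*, which defines microglia, was at 0 in every CRE library, and *Cldn5*, of endothelial cells, was at 0 in every RFP library. Fewer cells of a type and less RNA per cell cannot be told apart in such cultures, and the part of these shifts in the results below was not tested.

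Seen together, transcripts of NRF2, of 2 of its small MAF partners, of both BACH repressors and of p62 were higher in CRE libraries, while transcripts of KEAP1, NRF1, NRF3 and MAFF had differences too small or too variable to be called. A gene was called where the quasi-likelihood test of edgeR gave a Benjamini-Hochberg adjusted p under 0.05 across the 14488 genes. By this rule 6 of the 10 members were higher in CRE libraries, where 16.4% of all genes tested were, and 0 were lower, where 13.8% of all genes were. The median fitted log2 fold change, CRE over RFP, was 0.62 over the members and 0.02 over all genes tested. The smallest called difference was that of *Bach2* (0.43) and the largest difference not called was that of *Maff* (0.56), whose counts were low. None of the members passed a stricter rule, a log2 fold change beyond 1.3 with a -log10 adjusted p above 6, and the fitted values nearest to that fold were those of *Mafk* (1.15) and *Bach1* (1.02). Without Cre1-3 and Cre3-3 the same 6 members were called, with log2 fold changes of 1.06 for *Nfe2l2*, 0.73 for *Mafg*, 0.99 for *Mafk*, 1.00 for *Bach1*, 0.36 for *Bach2* and 0.63 for *Sqstm1*, and -0.17 for *Keap1*, which was not called.

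**Figure D1:**
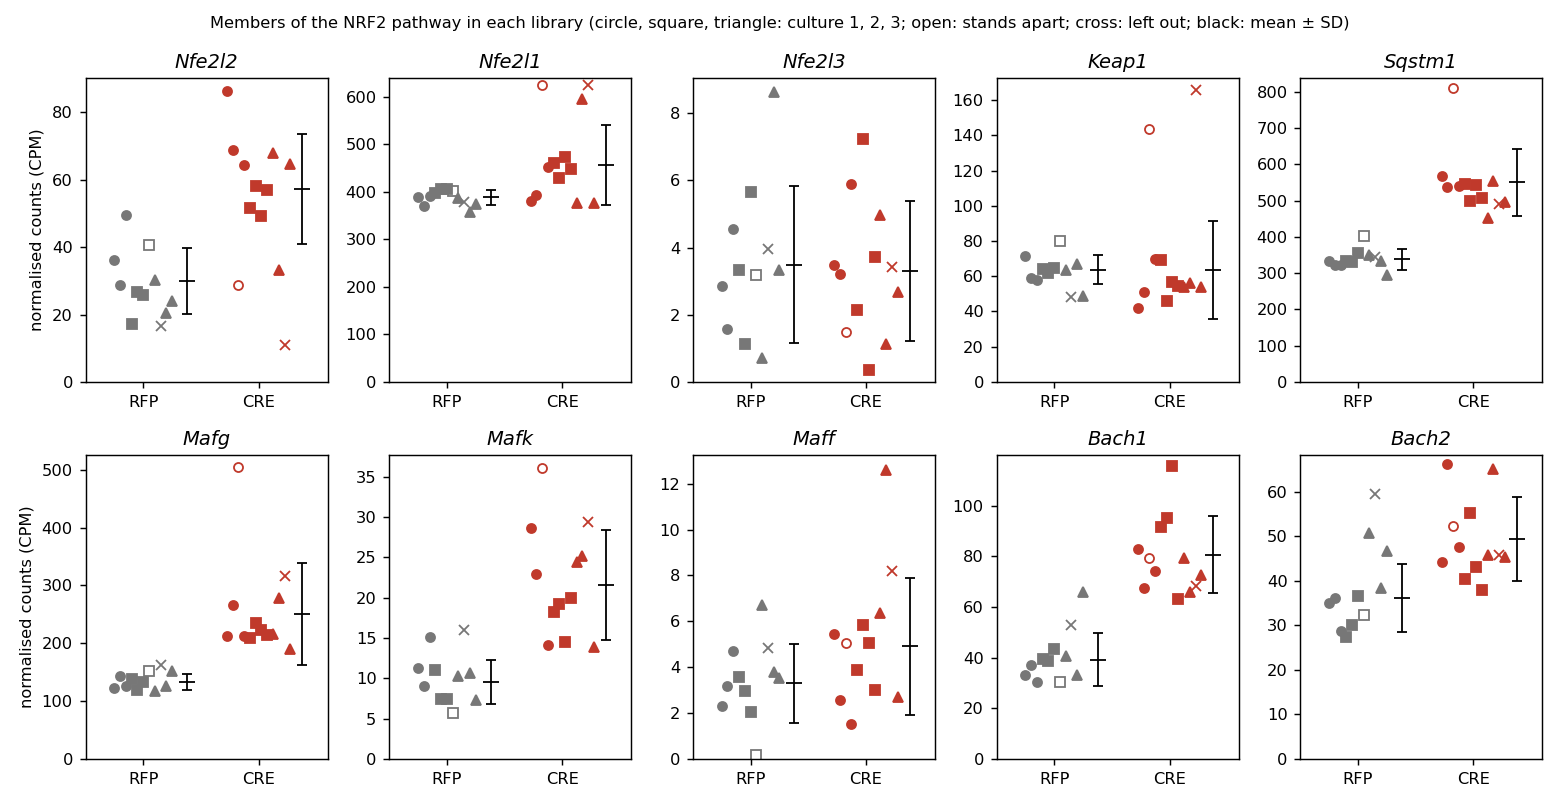
Normalised counts (CPM, linear axes from 0) of each member in every RFP (grey) and CRE (red) library, with mean ± SD of the 11 CRE and 10 RFP libraries compared. *Mafg* and *Sqstm1* have every CRE library of the comparison above every RFP library, and open symbols show how far Cre1-3 lies from the other CRE libraries in *Keap1*, *Mafg* and *Sqstm1*.

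*Nfe2l2* (ENSMUSG00000015839, chromosome 2, 75504739 to 75534985, minus strand) codes for NRF2. Its level was 17.1 to 49.6 CPM in the 10 RFP libraries, with a median of 27.8 CPM. In the 11 CRE libraries it was 28.7 to 86.3 CPM, with a median of 58.1 CPM. The groups overlapped, with 8 CRE libraries above the highest RFP library and 5 RFP libraries below the lowest CRE library. The fitted log2 fold change was 0.91 ± 0.19 (SE, n = 11 and 10), a fold of 1.88, with a 95% confidence interval of 0.53 to 1.3 on the log2 scale. The lowest CRE library was Cre1-3, and without the libraries that stand apart the difference was 1.04 ± 0.17 (n = 10 and 9) and the CRE libraries ran from 33.1 to 86.3 CPM. In Cre3-3, which was not in the comparison, *Nfe2l2* had 16 counts, or 10.9 CPM, the lowest value of all 23 libraries.

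Within the cultures the *Nfe2l2* difference was 0.67 ± 0.33 in culture 1, 0.95 ± 0.30 in culture 2 and 1.14 ± 0.35 in culture 3 (log2, SE). The RFP mean was highest in culture 1, at 38.2 CPM against 27.6 and 25.0 CPM in cultures 2 and 3. The difference between these RFP means did not pass the test of culture numbers among the RFP libraries (edgeR, adjusted p = 0.595). In culture 2 all 4 CRE libraries, at 49.2 to 58.1 CPM, were above the highest RFP library, RFP2-4 at 40.6 CPM. In culture 3 the lowest CRE library, at 33.1 CPM, was above the highest RFP library, at 30.3 CPM, whereas in culture 1 the groups overlapped through Cre1-3.

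*Nfe2l1* (ENSMUSG00000038615, chromosome 11, 96705767 to 96720813, minus strand), which codes for NRF1, was far more abundant than *Nfe2l2*. The RFP libraries lay within 358 to 406 CPM (median 391 CPM), with a coefficient of variation of 4.20%, the smallest among the members. The CRE libraries were at 377 to 625 CPM, with a median of 448 CPM and a coefficient of variation of 18.5%. Of the CRE libraries 7 exceeded every RFP library, but only 3 RFP libraries were below every CRE library. The difference was 0.21 ± 0.10 on the log2 scale (95% confidence interval 0.01 to 0.41) and was not called. The largest CRE values were those of Cre1-3 (625 CPM) and Cre3-2 (596 CPM), and without the libraries that stand apart the difference was 0.16 ± 0.08. With all 23 libraries it was 0.28 ± 0.10 and was called.

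*Nfe2l3* (ENSMUSG00000029832, chromosome 6, 51409650 to 51438796, plus strand), which codes for the third relative, NRF3, was low in both groups. It had 7 to 109 counts in the RFP and 4 to 95 counts in the CRE libraries. These are 0.72 to 8.62 CPM (median 3.25 CPM) and 0.34 to 7.22 CPM (median 3.22 CPM), ranges that overlapped almost entirely. The difference of -0.10 ± 0.43 on the log2 scale had a confidence interval from -0.98 to 0.78, and the coefficient of variation was 67.1% in the RFP and 63.3% in the CRE libraries. The exons of *Nfe2l3* share 3166 of their 6037 bases with *Hnrnpa2b1* on the other strand, and the strand setting of the counting is not given in the sources used here, so some of these counts may belong to that gene.

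*Keap1* (ENSMUSG00000003308, chromosome 9, 21141026 to 21150679, minus strand) codes for the adaptor that hands NRF2 to CUL3. Its level was 48.5 to 79.9 CPM (median 63.8 CPM) in the RFP and 41.9 to 143 CPM (median 54.3 CPM) in the CRE libraries. The highest CRE value was that of Cre1-3, and the other 10 CRE libraries ended at 69.9 CPM, within the RFP range. The difference of -0.03 ± 0.17 on the log2 scale (95% confidence interval -0.37 to 0.31) was not called. Its sign depended on the libraries, since it was -0.18 ± 0.10 without those that stand apart and 0.19 ± 0.20 with all 23, where Cre3-3 added a value of 166 CPM. In each of these sets the difference was not called, which does not show that the level was the same.

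*Sqstm1* (ENSMUSG00000015837, chromosome 11, 50089572 to 50107684, minus strand) codes for p62, which binds ubiquitin, the autophagosome protein LC3 and KEAP1. It was at 295 to 402 CPM (median 333 CPM) in the RFP and at 451 to 811 CPM (median 540 CPM) in the CRE libraries. Every CRE library was above every RFP library, which held for 2 of the 10 members and for 2.64% of all genes tested. The log2 fold change was 0.69 ± 0.10, a fold of 1.61, with a confidence interval of 0.49 to 0.88. The highest library of each group stood apart, and without them the ranges narrowed to 295 to 355 CPM in RFP and 451 to 567 CPM in CRE, with a difference of 0.65 ± 0.06. Within the cultures the difference was 0.88 ± 0.16, 0.54 ± 0.15 and 0.61 ± 0.17. Exons of *Sqstm1* overlap those of *Mrnip* on the other strand over 1412 of 8203 bases.

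The small MAF proteins have a DNA-binding domain but no activation domain, and serve NRF2 and BACH1 alike. *Mafg* (ENSMUSG00000051510, chromosome 11, 120515942 to 120524530, minus strand) was the most abundant of the 3. It was at 117 to 153 CPM (median 130 CPM) in the RFP and at 190 to 505 CPM (median 215 CPM) in the CRE libraries, and like *Sqstm1* it had no overlap between the groups. The log2 fold change was 0.90 ± 0.14, with a confidence interval of 0.61 to 1.19. Cre1-3 gave the highest value, and without the libraries that stand apart the CRE libraries reached 278 CPM and the difference was 0.77 ± 0.08. In those 19 libraries the cultures gave 0.78 ± 0.14, 0.75 ± 0.13 and 0.78 ± 0.14.

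*Mafk* (ENSMUSG00000018143, chromosome 5, 139776804 to 139788408, plus strand) had the largest fitted difference of the members, 1.15 ± 0.19 on the log2 scale, a fold of 2.23, with a confidence interval of 0.76 to 1.55. Its levels were 5.72 to 15.1 CPM (median 9.69 CPM) in the RFP and 13.8 to 36.1 CPM (median 19.9 CPM) in the CRE libraries. A single RFP library, at 15.1 CPM, reached into the CRE range, and 8 CRE libraries were above it. *Tmem184a* on the other strand shares 905 of the 5623 exon bases of *Mafk*. *Maff* (ENSMUSG00000042622, chromosome 15, 79230821 to 79243276, plus strand), a small MAF gene known to be induced by stress signals, had 2 to 66 counts in the RFP and 19 to 123 counts in the CRE libraries. Its levels were 0.18 to 6.71 CPM (median 3.35 CPM) and 1.51 to 12.6 CPM (median 5.04 CPM). Only 1 CRE library was above every RFP library, and the difference of 0.56 ± 0.38 (95% confidence interval -0.23 to 1.34) was not called.

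Per kilobase of exon the 3 small MAF transcripts summed to 16.2 to 20.3 CPM in the RFP libraries (median 18.4) and to 25.6 to 67.4 CPM in the CRE libraries (median 31.7). *Mafg* made up 77.7% to 94.4% of this sum in RFP and 78.6% to 89.3% in CRE libraries. The medians were 85.1% and 84.9%, so the pool of partner transcripts was larger in every CRE library while the makeup of the pool overlapped.

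BACH1 is a repressor that heme releases from DNA, and *Hmox1* and the ferritin genes are among those it holds down. *Bach1* (ENSMUSG00000025612, chromosome 16, 87495782 to 87530234, plus strand) was at 30.3 to 65.8 CPM (median 37.9 CPM) in the RFP and at 63.0 to 115 CPM (median 79.2 CPM) in the CRE libraries. The groups met at a single point, where RFP3-4 at 65.8 CPM was above the lowest CRE library, Cre2-4 at 63.0 CPM. The other 9 RFP libraries did not exceed 43.5 CPM. The log2 fold change was 1.02 ± 0.14, a fold of 2.03, with a confidence interval of 0.74 to 1.3, and it was 0.99 ± 0.13 without the libraries that stand apart. By culture it was 1.15 ± 0.23, 1.25 ± 0.21 and 0.64 ± 0.24.

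*Bach2* (ENSMUSG00000040270, chromosome 4, 32238714 to 32586108, plus strand), the relative known from B cells and neurons, differed less. It was at 27.3 to 50.8 CPM (median 35.5 CPM) in the RFP and at 38.0 to 66.2 CPM (median 45.9 CPM) in the CRE libraries. Of the CRE libraries 4 were above every RFP library, and 7 RFP libraries were below every CRE library. The log2 fold change was 0.43 ± 0.13, with a confidence interval of 0.17 to 0.70. This call was lost with all 23 libraries (0.36), without culture 1 (0.34), without culture 2 (0.41) and with counts summed per culture (0.40). The difference by culture was 0.63 ± 0.21, 0.47 ± 0.19 and 0.20 ± 0.22, and RFP levels were highest in culture 3, at a mean of 45.3 CPM against 33.2 and 31.6 CPM.

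**Figure D2:**
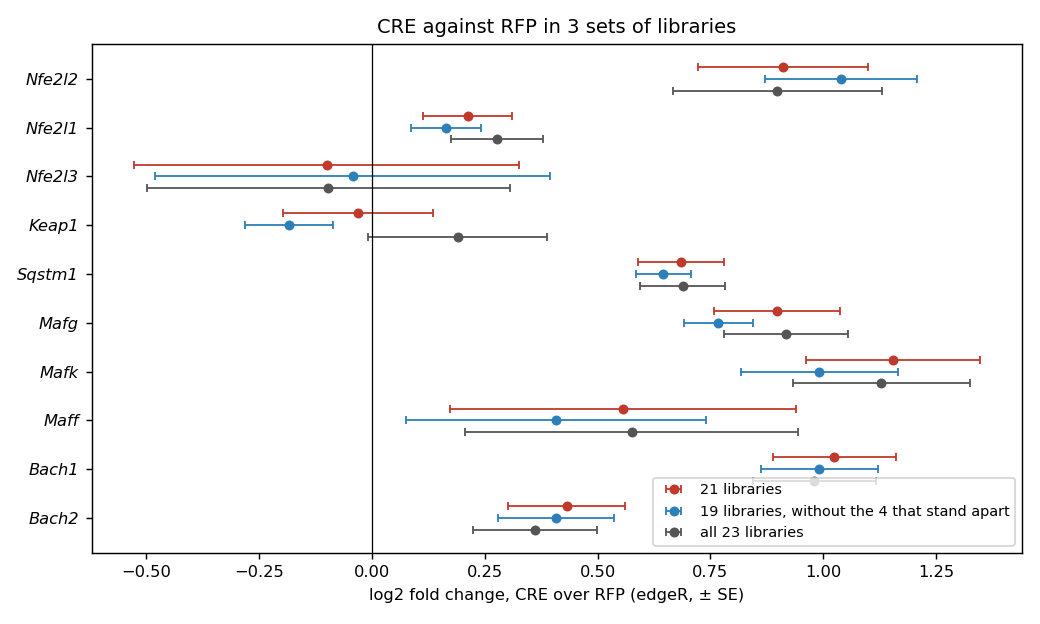
Fitted log2 fold change, CRE over RFP, of each member (points, bars ± SE) in the 21 libraries of the comparison, in 19 without those that stand apart and in all 23. All members but *Keap1* and *Nfe2l3*, called or not, lie to the right of 0 in all 3 sets, while *Keap1* changes side, from -0.18 to 0.19.

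Since activators and repressors of the same elements differed in the same direction, ratios within each library were also read, per kilobase of exon. *Nfe2l2* over *Bach1* was 0.488 to 2.17 (median 0.958) in the RFP and 0.482 to 1.39 (median 1.14) in the CRE libraries, and 3 RFP libraries were above every CRE library. *Nfe2l2* over *Keap1* was 0.279 to 0.894 (median 0.504) in RFP and 0.209 to 2.15 (median 1.09) in CRE libraries. The low end in CRE was Cre1-3, and the 10 CRE libraries that do not stand apart ran from 0.615 to 2.15. *Nfe2l2* over *Nfe2l1* was 0.062 to 0.183 in RFP and 0.067 to 0.328 in CRE libraries, so that *Nfe2l1* exceeded *Nfe2l2* in every library. *Bach1* over *Bach2* was 1.10 to 1.99 (median 1.44) in RFP and 1.40 to 3.70 (median 2.29) in CRE libraries.

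Cre1-3 moved several of these values together. Among the 11 CRE libraries it was the highest for 5 members, *Keap1*, *Mafg*, *Mafk*, *Sqstm1* and *Nfe2l1*, and the lowest for *Nfe2l2*. Relative to the median of the other 10 CRE libraries it was 1.40 higher on the log2 scale for *Keap1*, whose exons are 59.4% GC, and 1.23 higher for *Mafg*, at 55.6% GC. It was 0.05 higher for *Bach1*, at 47.0% GC, while the value for *Nfe2l2*, at 46.5% GC, was -1.09. *Maff*, at 56.3% GC, was 0.18 higher. With each library's trend in GC content removed, the same 6 members were called.

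In contrast to the CRE difference, the culture numbers can be tested on the members, since the pathway was not selected on them. Among the RFP libraries 84 of 15488 genes (0.542%) differed between the 3 cultures, and 0 members were among them. The lowest adjusted p of a member was 0.42, for *Bach2* (edgeR, unadjusted p = 0.022, and 1 of the 10 members was under 0.05 unadjusted). Limma-voom also called 0 members. The CRE difference varied with culture for 1 of 14488 genes (0.0069%) and for 0 members, with adjusted p of 0.978 or more in edgeR, no member under an unadjusted p of 0.05 and 0 members called by limma-voom. These tests do not show that the cultures were alike. The SE of a difference within a culture was 0.15 to 0.86 on the log2 scale, so only large variation could have been seen.

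**Figure D3:**
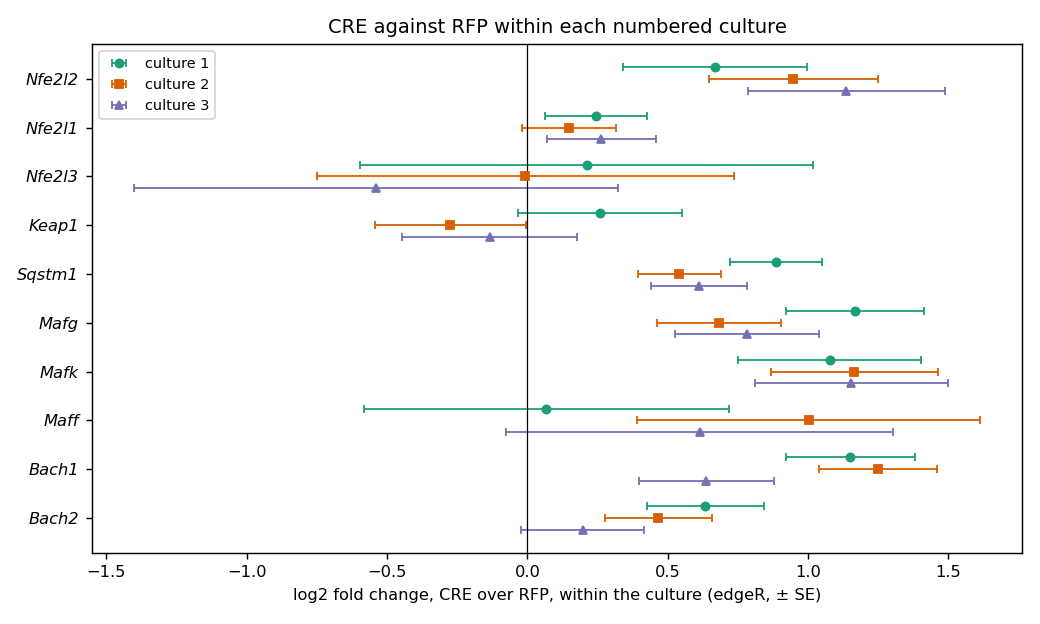
Log2 fold change, CRE over RFP, of each member within culture 1, 2 and 3 (points, bars ± SE, from a fit over the 21 libraries). All members but *Keap1* and *Nfe2l3*, called or not, are above 0 in all 3 cultures, and *Bach1* and *Bach2* have their lowest value in culture 3, 0.64 and 0.20.

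The order of transcript levels in the control cultures does not rest on the CRE comparison and was tested between neighbours, per kilobase of the union of exons, in the 10 RFP libraries. *Nfe2l1* was highest, at 49.1 ± 2.06 CPM per kb (SD, n = 10), followed by *Sqstm1* at 41.2 ± 3.39 and, well below, *Mafg* at 15.6 ± 1.54 and *Keap1* at 11.2 ± 1.46 CPM per kb. *Nfe2l2* and *Bach1* came next at nearly the same level, 5.50 ± 1.78 and 5.39 ± 1.42 CPM per kb. *Bach2* followed at 3.61 ± 0.76, *Mafk* at 1.69 ± 0.48, *Maff* at 1.03 ± 0.54 and *Nfe2l3* at 0.58 ± 0.39 CPM per kb. Of the 9 neighbouring pairs 7 differed by a two-sided exact sign-flip permutation test at an adjusted p under 0.05. The adjusted p was 0.00293 for each of 6 pairs, in which all 10 libraries had the same order, from an unadjusted 0.00195 that is the smallest this test can give. It was 0.00502 for *Mafk* over *Maff*, in 9 of 10 libraries. The pairs that did not pass were *Nfe2l2* with *Bach1* (mean log2 difference 0.00, exact permutation p = 0.992) and *Maff* with *Nfe2l3* (0.80, exact permutation p = 0.227, adjusted 0.255). The last pair turned on RFP2-4, which had 2 counts of *Maff*, and without it the exact permutation test passed (mean log2 difference 1.24, adjusted p = 0.022, this order in 7 of 9 libraries).

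Depending on the length used, the head of this order changed. Divided by the longest annotated transcript, which is 3940 bases for *Sqstm1* against 8203 bases for the union of its many exons, *Sqstm1* was at 85.7 and *Nfe2l1* at 75.6 CPM per kb. All 10 libraries then had the opposite order of this pair. Between the repressor and its client, *Keap1* was above *Nfe2l2* per kilobase of the exon union in 10 of 10 control libraries (mean log2 difference 1.08). With the longest transcript it was above in 9 of 10 (0.81).

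**Figure D4:**
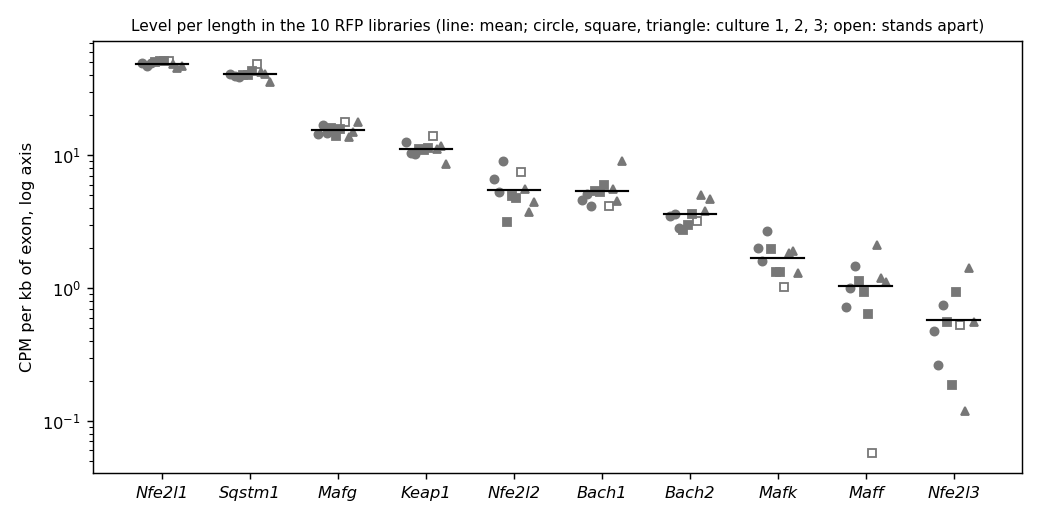
Level of each member in the 10 RFP libraries of the comparison (CPM per kb of exon, log axis, line at the mean), ordered from highest to lowest. *Nfe2l1* and *Sqstm1* lie above 35.9 CPM per kb in every library, and *Nfe2l2* and *Bach1* overlap, at 3.13 to 9.09 and 4.16 to 9.04 CPM per kb.

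The genes of these members also differ in the sequence at their start. The windows from 250 bases before to 50 bases after the start of the canonical transcript (GENCODE M39, GRCm39) were searched on both strands for the core of the antioxidant response element, TGACNNNGC, where N is any base. It was present in 2713 of 21770 windows of protein-coding genes (12.5%) and in 3 of the 10 members, *Sqstm1*, *Mafg* and *Mafk*. The windows of *Nfe2l2*, *Nfe2l1*, *Nfe2l3*, *Keap1*, *Maff*, *Bach1* and *Bach2* did not hold these letters. The stretches are shown because these members were among the 6 called higher, with the match in capitals, from 5′ to 3′ on the strand of the gene.
Sqstm1: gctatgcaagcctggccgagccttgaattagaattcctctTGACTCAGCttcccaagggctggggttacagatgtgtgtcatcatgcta
Mafg: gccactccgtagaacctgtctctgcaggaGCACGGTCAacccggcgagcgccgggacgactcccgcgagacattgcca
Mafk: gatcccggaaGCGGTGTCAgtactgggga

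The *Sqstm1* stretch is chr11:50102962-50103050 (minus strand) and its match begins 125 bases before the annotated start. This match, TGACTCAGC, reads in the direction of the gene and contains TGACTCA, the AP-1 element, within it. Other annotated transcripts of *Sqstm1* start at other positions. A second match with the core in the opposite direction begins 20 bases after the start. The *Mafg* stretch is chr11:120524547-120524624 (minus strand), with a match in the opposite direction that begins 221 bases before the start. The *Mafk* stretch is chr5:139777268-139777296 (plus strand), with a match in the opposite direction that begins 15 bases after the start. A match is a description of letters, and no binding was measured.

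The ubiquitin ligases that degrade NRF2, with proteins that regulate them or mark NRF2, were described with 17 genes. Of these 1 was called higher and 4 lower, with the targeted gene *Nedd8* itself among the 4. Of all genes tested 16.4% were called higher and 13.8% lower. The median log2 fold change was -0.09 over the list against 0.02 over all genes. *Nedd8*, the targeted gene, was lower by far, with -2.44 ± 0.17. *Cul3*, the scaffold that NEDD8 modifies, was at 57.5 to 135 CPM in the RFP and 43.9 to 158 CPM in the CRE libraries and was not called (-0.04 ± 0.16). *Rbx1*, the RING subunit shared by cullin ligases, was lower (-0.53 ± 0.13), at 27.9 to 99.1 CPM in CRE against 82.3 to 104 CPM in RFP libraries. *Gsk3a*, a kinase that marks NRF2 for a second ligase, was also lower (-0.39 ± 0.12), and *Ddb1*, the adaptor of CUL4 ligases, was higher (0.26 ± 0.08). The fourth lower gene, *Cul4a* (-0.29 ± 0.10), is given after its value was seen.

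Among 16 genes for proteins that bind KEAP1 or NRF2, or act on a protein that does, 4 were called higher and 2 lower, and the median was 0.13. The shares over all genes tested were 16.4% higher and 13.8% lower. *Cdkn1a*, the p53 target p21 that competes with KEAP1 for NRF2, was at 31.9 to 57.2 CPM in RFP and 81.6 to 163 CPM in CRE libraries, without overlap (1.52 ± 0.14). *Trim21*, a ubiquitin ligase that acts on p62, was low in both groups, at 2 to 24 and 9 to 53 counts (1.24 ± 0.36), and *Rxra*, a nuclear receptor that binds NRF2, was higher as well (0.56 ± 0.18). The remaining higher gene, *Chd6*, given after its value was seen, is a chromatin remodeller (0.32 ± 0.11). *Pgam5*, a mitochondrial phosphatase bound by KEAP1, was lower (-0.38 ± 0.10), and so was *Brca1* (-0.85 ± 0.30), at 3 to 87 counts in CRE libraries. *Maf*, a large MAF factor that unlike the small MAF proteins carries an activation domain, was called higher (1.03 ± 0.16) and was above every RFP library in 10 of 11 CRE libraries.

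Genes that NRF2 is known to raise were for the most part higher in CRE libraries. Of 34 such genes 31 were tested, 26 were called higher and 0 lower, where 16.4% and 13.8% of all genes tested were. The median log2 fold change was 1.85, against 0.62 over the members. The groups did not overlap, with every CRE library above every RFP library, for 22 of the 31 and for 2.64% of all genes tested. The list was written with results of this contrast known, so its counts are not independent evidence. *Srxn1*, which repairs oxidised peroxiredoxins, was at 81.7 to 134 CPM (median 110 CPM) in RFP and at 437 to 1168 CPM (median 896 CPM) in CRE libraries (2.89 ± 0.16). *Txnrd1*, the cytosolic thioredoxin reductase, was at 89.6 to 140 CPM in RFP and at 441 to 965 CPM in CRE libraries (2.53 ± 0.15). *Gsta3*, a glutathione S-transferase, had 0 to 8 counts in the RFP libraries and 108 to 725 counts, or 14.4 to 53.0 CPM, in the CRE libraries. Its fitted value of 6.93 ± 0.42 rests on the few control counts. The 5 genes tested and not called, chosen after their values were seen, were *Tkt* (0.17 ± 0.19), *Me1* (0.04 ± 0.14), *Gstp1* (-0.16 ± 0.20), *Ugdh* (-0.06 ± 0.13) and *Slc48a1* (0.02 ± 0.11).

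For NRF1 the picture differed. Of 33 proteasome genes known to respond to NRF1, 1 was called higher (*Psmd11*, a lid subunit, 0.46 ± 0.10) and 1 lower (*Psma3*, a core subunit, -0.50 ± 0.18). Their median was -0.08, with values from -0.50 to 0.46. Among all genes tested 16.4% were called higher and 13.8% lower. Of 7 genes for the release and cleavage of NRF1, 0 were higher and 1 was lower, *Ngly1*, the glycanase that removes its sugars (-0.58 ± 0.18). *Ngly1* was at 13.2 to 26.7 CPM in RFP and 6.81 to 22.1 CPM in CRE libraries. The difference between the NRF2 and proteasome lists was not tested.

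Among 16 genes that work with p62 in selective autophagy, 2 were higher and 2 lower, where 16.4% and 13.8% of all genes tested were. Their median was 0.00. *Map1lc3b*, the LC3 gene whose product p62 binds, was at 159 to 200 CPM in RFP and 184 to 280 CPM in CRE libraries (0.31 ± 0.09), and *Calcoco1*, another receptor, was also higher (0.35 ± 0.12). *Gabarap*, an LC3 relative (-0.26 ± 0.09), and *Wdfy3*, a scaffold for aggregates (-0.30 ± 0.09), were lower. The *Sqstm1* difference of 0.69 was larger than any value of this list, which ended at 0.58.

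**Figure D5:**
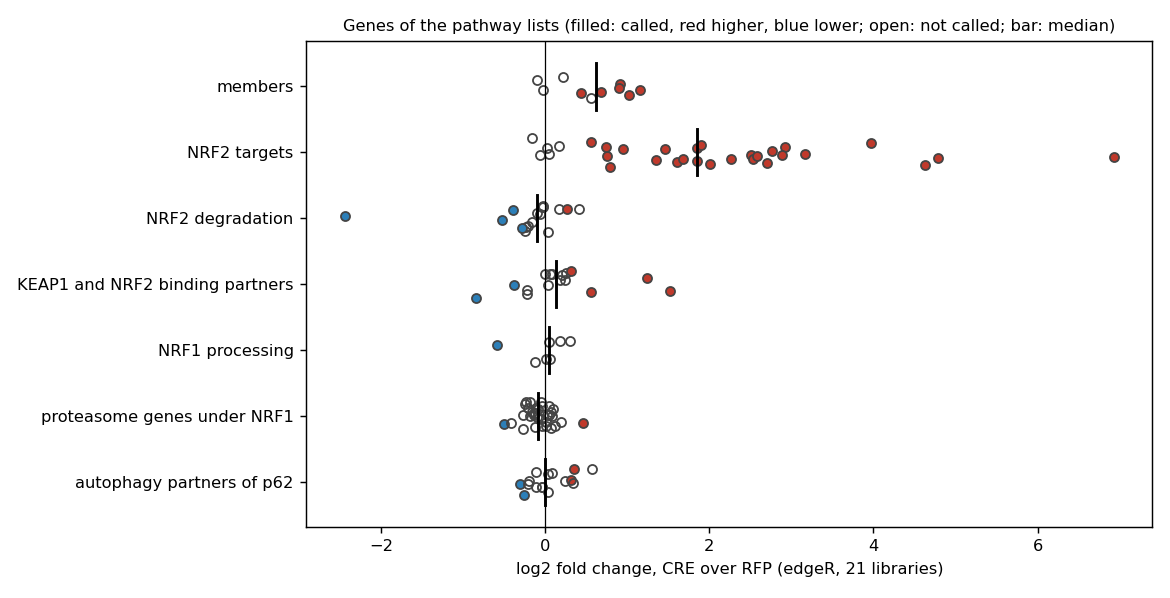
Log2 fold change, CRE over RFP, of every tested gene of the members and of 6 lists around them (21 libraries, filled points called, bar at the median). Medians are 1.85 for the NRF2 targets, 0.62 for the members and -0.08 for the proteasome genes.

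Finally, the genes that varied most like a member from library to library were listed, after the mean of each group and culture had been removed, among 9937 genes with at least 10 CPM in the 19 libraries that do not stand apart. These values are descriptions, since the libraries share cultures and the search was over many genes. Closest to *Nfe2l2* were *Cybrd1* (Pearson r = 0.895), *Clu* (0.894) and *Kank2* (0.876). Closest to *Nfe2l1* were *Bex2* (0.949), *Akt1s1* (0.914) and *Atcay* (0.914), and closest to *Keap1* were *Fam20c* (0.808), *Il17d* (0.788) and *Fbxo21* (0.786). *Bach1* was most like *Grik1* (0.819), *Adamts5* (0.793) and *Klf6* (0.791), and *Sqstm1* most like *Cactin* (0.884), *Arfgap3* (0.845) and *Lrp11* (0.842). No other member was among these. Between *Nfe2l2* and *Nfe2l1* r was -0.60, and between *Nfe2l2* and *Mafg* it was -0.64, over both groups together. The RFP libraries alone went the other way for *Nfe2l1*, whose order followed that of *Nfe2l2* in each culture. In culture 3 *Nfe2l2* was at 20.6, 24.1 and 30.3 CPM where *Nfe2l1* was at 358, 374 and 387 CPM. Cre3-2 had the lowest *Nfe2l2* of the CRE libraries used here (33.1 CPM) and the highest *Nfe2l1* (596 CPM). With Cre1-3 and RFP2-4 included the 3 closest genes of *Nfe2l2* were others, *Gpd1l*, *Igsf11* and *Prdx6*.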

How the data were processed

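Libraries were made by the authors with the Illumina Stranded mRNA Prep kit and read on a NovaSeq6000. STAR 2.7.8a placed the reads on GRCm39 with Ensembl release 110, and featureCounts 1.5.0-p1 gave the count per gene (versions per the submitters' processing notes). They deposited raw counts for each library, as whole numbers without normalization. Strand and multimapping settings are not given in the sources used here.

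Counts were analysed in R 4.3.3 with edgeR 4.0.16 (filterByExpr, TMM, robust glmQLFit, glmQLFTest), with limma 3.58.1 and DESeq2 1.42.0 as alternatives. CPM used TMM factors over 14382 genes of all 23 libraries. Likeness used log2(CPM + 0.5). Symbols and exons came from GENCODE M39 and matched 56323 of 56941 identifiers. Scripts were tested on simulated data. Members and gene lists were chosen with earlier results of these data known. The named genes are the members, *Nedd8*, *Cul3*, up to 3 called genes with the smallest p per direction in each list, and the 3 genes most like each of *Nfe2l2*, *Nfe2l1*, *Keap1*, *Bach1* and *Sqstm1*. Totals of 7430401 to 17112815 counts set the precision. Other settings were the libraries, tool, scaling, filter, blocks, sums per culture, cultures left out and GC content. A gene that the rule takes is left out here.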

Additional observations from a re-analysis of the deposited data

Results flagged for a closer look

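Among the RFP libraries, 1 member value stood far from the others. In RFP3-4 *Bach1* was at 65.78 CPM, and the gap to the next RFP library took 0.626 of the range of the 10 RFP libraries, beyond Dixon's 95% critical value of 0.466. The highest and the lowest RFP library of each member were tested in this way, 20 tests in all, and chance marks about 1 in 20 groups. The 11 CRE libraries were not tested in this way. Among them Cre1-3 lay far from the rest, with 143 CPM of *Keap1* against at most 69.9 CPM and 505 CPM of *Mafg* against at most 278 CPM in the other 10.

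Cre3-3, the CRE library of 1546796 counts that the comparison does not use, was above all 10 RFP libraries for 7 members. It had 625.5 CPM of *Nfe2l1*, 165.7 CPM of *Keap1*, 317.2 CPM of *Mafg*, 29.33 CPM of *Mafk*, 8.185 CPM of *Maff*, 68.21 CPM of *Bach1* and 491.1 CPM of *Sqstm1*. *Nfe2l2*, at 10.9 CPM, was below all RFP libraries. The *Maff* value rests on 12 counts, and the share of mitochondrial counts in this library was 1.83%. Levels in it followed GC content, with a Spearman correlation of 0.563. The share of all genes for which Cre3-3 was above every RFP library was not counted, so the 7 is not a result about the members.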

How the results depend on the processing

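Besides the comparison over 21 libraries, 16 other fits and a stricter rule were run. *Nfe2l2*, *Mafg*, *Mafk*, *Bach1* and *Sqstm1* were called higher in all 16 fits, with log2 fold changes from 0.80 to 1.06, 0.73 to 1.03, 0.99 to 1.23, 0.89 to 1.17 and 0.57 to 0.79. *Bach2* was called in 12 of 16, and lost its call with all 23 libraries (0.36), with counts summed per culture (0.40) and without cultures 1 or 2 (0.34 and 0.41). *Nfe2l1* was called only with all 23 libraries (0.28). The sign turned for *Keap1* with all 23 libraries (0.19) and without culture 2 (0.13), where leaving out a culture gave from -0.22 to 0.13, and for *Nfe2l3* without culture 3 (from -0.239 to 0.0605 over the cultures left out) and with the replicate number as a block (0.11). The cause of these changes was not tested. Under the stricter rule 0 members were called. The counts of the lists moved with all 23 libraries, where 2 genes of NRF2 degradation were called lower and 1 higher. Of the p62 autophagy list 1 was lower and 3 higher. Of 14382 genes tested in that setting 1692 were lower and 2357 higher. Without the 4 libraries that stand apart, 4 genes of the KEAP1 and NRF2 partner list were called lower and 6 higher. Of the NRF2 targets 1 was lower and 26 higher, and of the proteasome genes 2 were lower and 1 higher. Of NRF1 processing 1 gene was higher and 1 lower, and 4 autophagy genes were higher and 4 lower. In that setting 2743 of 14666 genes tested were lower and 2839 higher.

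Same-numbered samples deviated together only weakly, with correlations of 0.0353, 0.0049 and 0.1521 for the culture numbers and 0.0901, -0.0468, -0.1061 and -0.2474 for the replicate numbers. For 11 libraries the best match in the other group had the same culture number. These values were not tested against a reference, so they do not show whether equal numbers mark paired samples. With the culture number as a block 6 members were called and 4267 genes in all, and with the replicate number as a block 6 and 4235, against 4370 without a block. For *Maff* and *Nfe2l3*, low in count and variable between libraries, the intervals were widest.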
